A study of Ovis aries with 6 samples.

Results

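The genes described here code for the factors that start and extend protein chains on the ribosome and for the enzymes that load transfer RNAs with amino acids. They were chosen from the annotation of a sheep expression array: a probe was a member if its description named a translation initiation or elongation factor or a tRNA synthetase, or if its gene name began with EIF or EEF and a number. The rule found 34 of 15008 gene probes, which stand for 24 products: 18 probes of 13 initiation factor products, 8 probes of 4 elongation factor products and 8 probes of 7 products of the tRNA synthetase group. The rule reads the annotation and no measured value, but it was written with earlier results of these data known.

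In initiation, the eIF2 complex brings the initiator tRNA to the small ribosomal subunit, eIF3 holds that subunit in a scaffold, and the eIF4 factors bind the capped mRNA and unwind it. eIF5 and eIF5B then release eIF2 and join the large subunit. In elongation, eEF1A delivers each charged tRNA to the ribosome and is recharged with GTP by the eEF1B exchange complex. Aminoacyl-tRNA synthetases join each amino acid to its tRNA, and in animal cells several of them sit in a multi-synthetase complex held by the scaffold proteins AIMP1, AIMP2 and AIMP3.

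The study compared cultured sheep (Ovis aries) cells of 2 kinds, 3 samples of skin epidermal stem cells and 3 samples of corneal epithelia cells, which the design text calls lines. All were untreated adherent cultures harvested with trypsin, and the methods of isolation are cited in the labels and not described there. Total RNA was amplified, labelled with Cy3 and hybridised, 1 array a sample. Nothing in the labels says that samples of a group came from separate animals, so a p-value here measures no more than how these samples vary, and that variation may be technical. In bulk samples, fewer cells of a type and less RNA per cell cannot be told apart.

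Levels are log2 signal relative to the 75th percentile of the same array, so that 0 is that percentile, and a change is the corneal mean minus the epidermal mean. A level holds for its own probe and is not set against the level of another probe. All 6 arrays lay on 1 slide and were scanned once. The epidermal samples filled its row 1 and the corneal samples its row 2, and the effect of position and that of cell kind cannot be told apart. Between 77.5% and 81.6% of spots were well above background on the epidermal arrays and between 72.9% and 75.9% on the corneal arrays. The keratinocyte markers found on the array, KRT14 and TP63, were at or near background: KRT14 was well above background on 2 epidermal arrays and no corneal array, and TP63 on none. PAX6, an eye transcription factor and the 1 corneal epithelium marker with a probe, was measured on all 6 arrays. The summed linear level of its 2 probes was 0.264 to 0.282 on the epidermal arrays and 0.333 to 0.359 on the corneal arrays. Of 8 mesenchymal markers, 5 were measured (VIM, COL1A1, COL1A2, COL3A1 and DCN), with a summed linear level of 1130 to 1390 on the epidermal and 1190 to 1220 on the corneal arrays. That sum is carried by VIM and DCN and does not show the collagens: none of the 5 genes was called higher and 3 were called lower in corneal cells. COL3A1 was 27.4-fold and 35.7-fold lower by its 2 probes, COL1A1 1.18-fold and COL1A2 1.20-fold. The probes of DCN disagreed, 1 of them not called and the other 1.36-fold lower. Of 8 proliferation markers, 3 were measured, with sums of 1.82 to 1.87 on the epidermal and 1.82 to 1.96 on the corneal arrays that hide opposite changes. CCNA2 was 2.10-fold higher (adjusted p = 7.56e-05) and CDK1 1.09-fold higher (adjusted p = 0.0493), while PCNA was 1.11-fold lower by 1 probe (adjusted p = 0.0304). The other PCNA probe was not called (change -0.07, adjusted p = 0.164), and its groups overlapped. CD14, the 1 immune marker measured of 5, summed to 3.85 to 4.03 on the epidermal and 3.07 to 3.20 on the corneal arrays and was called lower. TIE1, the 1 endothelial marker measured of 5, was dim on the epidermal arrays and not well above background on any corneal array. The part of these cell markers in the results below was not tested.

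The probes themselves decide what several of the results are about, and those that the comparisons turn on are shown here 5′ to 3′ as printed on the array. All probes were 60 bases long, and the annotation gives none of the members a genome position. The first set is a pair of eIF4A2 probes that overlap, with the shared 40 bases in capitals, so that their values are not independent.
A_70_P016561: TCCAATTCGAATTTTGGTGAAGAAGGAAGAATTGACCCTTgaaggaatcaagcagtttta
A_70_P016562: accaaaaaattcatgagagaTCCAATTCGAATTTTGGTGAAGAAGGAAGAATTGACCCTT

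The second set holds the 3 eEF1A1 probes and the eEF1A2 probe, which differ in their change. The 14 bases in capitals are shared by the first 2 probes, which were designed on 1 ovary cDNA read that carries the gene name EEF1A1.
A_70_P012927: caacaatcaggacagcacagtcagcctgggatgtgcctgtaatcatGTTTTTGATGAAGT
A_70_P012926: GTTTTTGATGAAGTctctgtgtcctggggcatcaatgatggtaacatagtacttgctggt
A_70_P024216: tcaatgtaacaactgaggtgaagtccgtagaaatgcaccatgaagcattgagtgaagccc
A_70_P046666: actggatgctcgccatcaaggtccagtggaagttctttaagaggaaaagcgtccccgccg

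The strand of the first 2 was examined with the GTP-binding motif of eEF1A, known as its G3 box, searched as any run of codons that spells it on both strands of all 15008 probes. The motif was found on the printed strand of 0 probes and on the opposite strand of 1 probe (0.00666%), which was A_70_P012926. A_70_P012927 shares its 14 bases with that probe on the same strand. The search was chosen after the values were seen. A probe that reads an mRNA through labelled complementary RNA carries the strand of the mRNA, so the values of A_70_P012926 and A_70_P012927 are given below as values of these probes and not as the level of the eEF1A1 mRNA.

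The third set holds the eIF4G1 probes, shown because they differ most among the probes of 1 product. The first is shown whole, and of the others the stretch is given that holds a shared run of 25 bases, in capitals. Past that run those probes differ, and no ungapped alignment of them reached the match that the search required. Whether both match 1 eIF4G1 transcript there was not tested.
A_70_P031206: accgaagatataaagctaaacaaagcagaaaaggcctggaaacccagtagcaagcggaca
A_70_P060011: TTGGTCAATGGCTCGTCCGCCTGAAaagaa
A_70_P013091: ctTTGGTCAATGGCTCGTCCGCCTGAAgag

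All 34 member probes were well above background on all 6 arrays and none was saturated, so each had a measured level in both cell kinds. Tested with limma across all 11742 kept probes with Benjamini-Hochberg adjustment at a threshold of 0.05, 10 member probes were higher in corneal cells and 13 were lower. Over all kept probes, 26.4% were called higher and 33.4% lower, 59.8% in all. The member total of 23 of 34 probes, 67.6%, was near that background. The 3 groups of genes had different splits by probe. Initiation factors had 1 probe higher and 9 lower of 18, elongation factors 4 higher and 3 lower of 8. The synthetase group had 5 higher and 1 lower of 8. These counts take probes of 1 product apart, and some of those probes overlap in sequence. The lower initiation probes include all those of eIF4A2 and the eIF4G1 pair that shares a run of 25 bases. All the lower elongation probes belong to the single gene EEF1E1. Without scaling between arrays, the median change of all kept probes moved from -0.05 to -0.22. In that setting the initiation split was 0 higher and 14 lower and the synthetase split 0 higher and 2 lower. The percentages of all kept probes above belong to the scaled values, so the unscaled counts have no such share beside them.

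Most changes were small. The median size of the change was 0.21 on the log2 scale for the members and 0.25 for all kept probes. At least 2-fold calls were 3 of 34 member probes, beside 7.76% of all kept probes. By group, the median size was 0.16 for initiation factors, 0.52 for elongation factors and 0.18 for the synthetase group. The elongation value rests on the EEF1E1 probes (-0.54, -0.51 and -0.48) and the pair from the ovary cDNA read (0.58 and 0.53). The remaining elongation factor probes changed by -0.04, 0.38 and 1.17. The arrays of a group lay close together, with a median within-group SD of 0.045 for member probes and 0.057 for all kept probes. The groups did not overlap in 27 of the 34 member probes, 12 of 18, 7 of 8 and 8 of 8 by group, beside 67.9% of all kept probes.

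Among the initiation factors, subunits of the eIF2 and eIF3 complexes moved little, apart from eIF3D. eIF3 subunit D, a part of eIF3 that can itself bind the mRNA cap, had levels of 0.45, 0.49 and 0.47 on the epidermal arrays and 0.09, 0.06 and 0.09 on the corneal arrays. The corneal arrays were all below the epidermal arrays, and eIF3D fell by 0.39 ± 0.03 (SE, n = 3 a group, adjusted p = 0.000129), a level 1.31-fold lower. The other eIF3 probes did not pass the test. eIF3C, a core subunit, was at -1.65, -1.43 and -1.58 against -1.55, -1.69 and -1.58, with a change of -0.06 and a 95% interval of -0.23 to 0.12. eIF3J, a loosely held subunit, was at 1.64, 1.60 and 1.55 against 1.55, 1.51 and 1.54, with a change of -0.07 ± 0.04 (SE, adjusted p = 0.164). Both had overlapping groups, so of the 3 subunits measured eIF3D alone passed the test, and differences between the subunits were not tested.

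The beta subunit of eIF2 was at -0.21, -0.22 and -0.21 on the epidermal arrays and at -0.28, -0.41 and -0.35 on the corneal arrays. It fell by 0.13 ± 0.04 (SE, adjusted p = 0.0363), and this call was lost in 8 of 17 alternative analyses, among them those without any 1 of the 3 epidermal arrays or without corneal replicate 2 or 3. eIF2 subunit 3, the gamma subunit that binds GTP and the initiator tRNA, was at 1.94, 1.84 and 1.81 against 1.99, 2.00 and 1.94. Its groups did not overlap, but its change of 0.11 ± 0.04 (SE) did not pass the test (adjusted p = 0.0723), and the sign turned to -0.05 without scaling. eIF1A, coded by EIF1AX, which helps the small subunit to scan for the start codon, was at 5.23, 5.28 and 5.27 against 5.23, 5.24 and 5.22. Its groups overlapped and its change of -0.03 had a 95% interval of -0.10 to 0.04, with a sign that turned under 3 of the scalings tried.

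eIF4A2, an RNA helicase that unwinds the leader of the mRNA, was named by 4 probes, and all 4 were lower in corneal cells. A_70_P016561 was at 0.40, 0.47 and 0.38 on the epidermal and at 0.10, 0.20 and 0.12 on the corneal arrays, and fell by 0.28 ± 0.04 (SE, adjusted p = 0.00225). A_70_P016562, which shares 40 bases with it, was at -0.33, -0.34 and -0.37 against -0.59, -0.58 and -0.58 and fell by 0.23 ± 0.03 (SE, adjusted p = 0.000737). These overlapping probes moved by similar amounts. The remaining probes share no more than 6 bases in a row with them or with each other. A_70_P032301 was at 3.49, 3.58 and 3.57 against 3.36, 3.38 and 3.32 and fell by 0.19 ± 0.04 (SE, adjusted p = 0.00633). A_70_P001981 was at -2.53, -2.36 and -2.48 against -2.70, -2.64 and -2.73 and fell by 0.24 ± 0.05 (SE, adjusted p = 0.0121). A_70_P001981 is the 1 member with no open frame on its printed strand and open frames on the other strand alone, and the sources used here do not give its strand relative to the eIF4A2 mRNA. No epidermal array overlapped a corneal array for any of the 4 probes, and the 4 falls lay between 1.14-fold and 1.21-fold. Each of these calls held in all the alternatives that tested the probe. eIF4A-III, a related helicase of the exon junction complex that marks spliced mRNA, was at 3.08, 3.11 and 3.06 against 3.04, 2.99 and 3.02, a change of -0.07 ± 0.03 (SE) that did not pass the test (adjusted p = 0.108).

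eIF4G1, the scaffold that joins the cap-binding protein eIF4E to eIF4A and to eIF3, gave different readings by probe. A_70_P031206 was at -1.40, -1.23 and -1.16 on the epidermal arrays and at -1.13, -1.22 and -1.23 on the corneal arrays. Its groups overlapped, and its change of 0.07 had a 95% interval of -0.10 to 0.24 (adjusted p = 0.433), with the sign turned to -0.10 without scaling. A_70_P060011 was at -3.76, -4.20 and -4.22 against -4.99, -5.59 and -5.51. A_70_P013091, annotated with an assembled transcript that A_70_P060011 also lists, was at -3.90, -4.17 and -4.18 against -5.12, -5.27 and -5.55. In both probes every corneal array lay below every epidermal array, and replicate 1 was the highest array of its group. The first of them fell by 1.31 ± 0.21 (SE, 95% interval of the change -1.82 to -0.79, adjusted p = 0.00278), a level 2.47-fold lower. The other fell by 1.23 ± 0.13 (SE, 95% interval -1.56 to -0.90, adjusted p = 0.000606), a level 2.34-fold lower.

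Both of these eIF4G1 probes were dim. The lowest level of any spot well above background was between -6.57 and -6.12 on the corneal arrays. With another background correction (normexp) the changes shrank to -0.40 and -0.34, still called. Subtracting A_70_P031206 on the same array removes any scaling of the array. That difference changed by -1.37 for A_70_P060011 and by -1.30 for A_70_P013091 between the groups, with no overlap of the 3 epidermal and 3 corneal values. A two-sided exact permutation test gave p = 0.1 for each, the smallest value 3 arrays against 3 allow. These probes were compared because their values differed, so the test restates that difference and adds no support to it.

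Factors of the last steps of initiation also split. eIF5, which triggers GTP hydrolysis on eIF2, was at 0.91, 0.86 and 0.85 on the epidermal arrays and at 1.23, 1.17 and 1.15 on the corneal arrays. It was the 1 initiation factor probe called higher, by 0.31 ± 0.04 (SE, adjusted p = 0.000873, 1.24-fold), and without scaling the change was 0.14 and not called (adjusted p = 0.19). eIF6, which keeps the ribosomal subunits apart, was at 3.41, 3.42 and 3.41 against 3.19, 3.25 and 3.24 and fell by 0.19 ± 0.03 (SE, adjusted p = 0.0031). The groups did not overlap for either gene.

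eIF5B, the GTPase that joins the subunits, had the widest epidermal spread of its role beside the dim eIF4G1 probe A_70_P060011, at -1.26, -0.76 and -1.10 against -0.88, -1.05 and -0.89. Its change of 0.10 had a 95% interval of -0.24 to 0.44, and its groups overlapped. Its sign turned without scaling and without epidermal replicate 1. eIF5A-1, a hypusine-bearing factor now placed in elongation and termination as well, was at 3.52, 3.74 and 3.67 against 3.62, 3.56 and 3.63. Its change of -0.04 had a 95% interval of -0.19 to 0.12, again with overlapping groups, and the sign turned under median centring and without epidermal replicate 2.

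The eIF5A-1 probe has a partner of interest on the array: A_70_P032486, which has no gene name and lies outside the rule, matches its opposite strand in 55 of 57 aligned bases. A stretch of each is shown, with 20 bases in capitals that are reverse complements of each other.
A_70_P016081: gattcTGGCAAATGGTCCTTGTGCCcttcc
A_70_P032486: ggaaaGGCACAAGGACCATTTGCCAaaatc
The partner was at 4.21, 4.31 and 4.30 on the epidermal arrays and at 4.16, 4.08 and 4.17 on the corneal arrays, and fell by 0.14 ± 0.04 (SE, adjusted p = 0.0357). The difference between the 2 probes on the same array changed by -0.10 between the groups (two-sided exact permutation p = 0.1). The sources used here do not give which strand belongs to the eIF5A mRNA.

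The elongation factors held the largest rise. eEF1A2, an eEF1A isoform known from adult neurons and muscle, was at -1.86, -1.97 and -1.99 on the epidermal arrays and at -0.74, -0.78 and -0.78 on the corneal arrays. The 3 corneal arrays were all above the epidermal arrays, and eEF1A2 rose by 1.17 ± 0.04 (SE, 95% interval 1.06 to 1.29, adjusted p = 1.07e-05), a level 2.26-fold higher. Of all kept probes, 93.6% had a smaller change in size. The rise was called in all 17 alternatives, with a change between 0.87 and 1.22. The probe was designed on an assembled sheep transcript whose description names the mouse protein, so its identity rests on that annotation.

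For eEF1A1, the common isoform of eEF1A, the probes differed. A_70_P024216, the eEF1A1 probe not designed on the ovary read, was at 6.50, 6.47 and 6.28 on the epidermal arrays and at 6.44, 6.32 and 6.36 on the corneal arrays. Its groups overlapped, and the change of -0.04 had a 95% interval of -0.22 to 0.13 (adjusted p = 0.625). The pair from the ovary cDNA read behaved otherwise. A_70_P012926 was at 1.97, 2.24 and 2.14 against 2.73, 2.67 and 2.69, higher by 0.58 ± 0.07 (SE, adjusted p = 0.00115, 1.50-fold). A_70_P012927 was at 1.87, 2.02 and 1.96 against 2.53, 2.48 and 2.43, higher by 0.53 ± 0.05 (SE, adjusted p = 0.00032). All corneal arrays lay above all epidermal arrays in both, and the motif match on the opposite strand of A_70_P012926 is the limit on what this pair measures. Against A_70_P024216 on the same array they changed by 0.62 and 0.57 (two-sided exact permutation p = 0.1 for each, the smallest possible). That contrast was made because the probes differed, so it restates the values of the pair and adds no support to them. 2 of the 4 higher elongation factor probes are therefore this pair.

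The exchange complex that recharges eEF1A was represented by its delta subunit. eEF1 delta, printed on 5 spots of each array, was at 0.07, 0.17 and -0.00 on the epidermal arrays and at 0.47, 0.40 and 0.50 on the corneal arrays. Its groups did not overlap, with a rise of 0.38 ± 0.06 (SE, adjusted p = 0.00203, 1.30-fold). Its 5 spots had SDs of 0.01 to 0.06 within an array. Without scaling the change was 0.21 and was not called (adjusted p = 0.0563).

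eEF1 epsilon 1, coded by EEF1E1, carries an elongation factor name and is also known as AIMP3, a scaffold of the multi-synthetase complex. It fell in corneal cells by all 3 of its probes. A_70_P045156 was at 2.13, 2.11 and 2.07 on the epidermal and at 1.61, 1.55 and 1.53 on the corneal arrays and fell by 0.54 ± 0.04 (SE, adjusted p = 8.04e-05, 1.46-fold). A_70_P045157 shares 59 of 60 bases with it, was at 2.13, 2.10 and 2.07 against 1.62, 1.57 and 1.58, and fell by 0.51 ± 0.03 (SE, adjusted p = 6.15e-05). A_70_P065821 shares no run above 9 bases with either and was at 2.83, 2.80 and 2.76 against 2.31, 2.35 and 2.29, a fall of 0.48 ± 0.03 (SE, adjusted p = 0.000106). The groups were apart in each probe, and the fall was between 0.45 and 0.71 in every alternative run.

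In the synthetase group, the partner scaffold moved the other way. AIMP2, which the array describes as interacting with the synthetase complex and which charges no tRNA itself, was at -2.12, -2.10 and -2.22 on the epidermal arrays and at -1.79, -1.94 and -1.89 on the corneal arrays. It rose by 0.27 ± 0.06 (SE, adjusted p = 0.00764, 1.21-fold). Without scaling the change was 0.10 and was not called. The difference between AIMP2 and EEF1E1 was not tested.

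The enzymes that were called higher rose by small amounts. Histidyl-tRNA synthetase, the enzyme for histidine, was at -2.22, -2.26 and -2.37 on the epidermal arrays and at -1.99, -1.99 and -1.86 on the corneal arrays, and rose by 0.34 ± 0.06 (SE, adjusted p = 0.00401, 1.27-fold). Threonyl-tRNA synthetase-like 1 was at 2.91, 2.91 and 2.87 against 3.10, 3.10 and 3.17 and rose by 0.23 ± 0.03 (SE, adjusted p = 0.00202). For both, every corneal array was above every epidermal array. Valyl-tRNA synthetase 2, an enzyme for valine, was at -1.18, -1.26 and -1.26 against -1.01, -1.05 and -1.11 and rose by 0.18 ± 0.04 (SE, adjusted p = 0.012). Without scaling, the 3 changes were 0.17, 0.06 and 0.01, and none was called.

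Seryl-tRNA synthetase, the enzyme for serine, was at 2.28, 2.35 and 2.39 against 2.41, 2.58 and 2.59. Its rise of 0.19 ± 0.06 (SE, adjusted p = 0.0423) lost its call in 7 of 17 alternatives, among them those without any 1 of the 3 epidermal arrays or without corneal replicate 2 or 3. Glutamyl-prolyl-tRNA synthetase, a bifunctional enzyme of the multi-synthetase complex, was at 3.91, 3.89 and 3.93 against 3.85, 3.83 and 3.78. It was the 1 probe of the group called lower, by 0.09 ± 0.03 (SE, adjusted p = 0.0492, 1.06-fold), and the call was lost in 14 of 17 alternatives, including each that left out an array.

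Asparaginyl-tRNA synthetase had 2 probes that share 17 bases, with changes of opposite sign. A_70_P068016 was at 3.05, 3.06 and 3.08 against 3.13, 3.13 and 3.13, a change of 0.06 ± 0.03 (SE, adjusted p = 0.0869). A_70_P068017 was at 3.58, 3.59 and 3.60 against 3.53, 3.56 and 3.54, a change of -0.05 ± 0.03 (SE, adjusted p = 0.183). The groups did not overlap in either probe, yet neither change passed the test, and the first turned to -0.10 without scaling.

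The initiation factors and the synthetase group can be set side by side without any scaling, since an array's scale cancels when 1 group of genes is subtracted from another. After each probe's epidermal mean was taken off, the median of the synthetase group minus the median of the initiation factors was 0.01, -0.02 and 0.02 on the epidermal arrays. On the corneal arrays it was 0.19, 0.34 and 0.28. The corneal arrays were all above the epidermal arrays. Taking off the epidermal mean holds the epidermal values near 0, so the distance between the groups restates the changes of the probes. Several probes of 1 product enter these medians, and AIMP2, which charges no tRNA, is counted with the synthetase group. This is a description over 8 and 18 probes that were not chosen as replicates of each other, and it was not tested.

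Of 76 other genes listed for translation and its control (termination, mTORC1, the integrated stress response, factor modification and mitochondrial translation), 7 were measured, so the list says little about these pathways. Of those 7, 5 were listed under the integrated stress response, and no gene listed for termination, mTORC1 or mitochondrial translation had a named probe. Whether HSPA5 and XBP1, which stand under that heading, report on that response was not tested. By adjusted p, 2 of the 7 genes were higher, 1 was lower and 4 did not pass the test. Beside this, 26.4% of all kept probes were called higher and 33.4% lower. The median change was -0.09, beside -0.05 for all kept probes. ATF4, the transcription factor of the integrated stress response and an activator of several synthetase genes, was at 3.54, 3.60 and 3.61 on the epidermal arrays and at 3.90, 3.88 and 3.89 on the corneal arrays. It rose by 0.30 ± 0.03 (SE, adjusted p = 0.000437), and without scaling the change was 0.14 and not called (adjusted p = 0.104). CEBPB, a transcription factor that can pair with ATF4, was at -1.42, -1.52 and -1.43 against -1.06, -1.01 and -1.04 and rose by 0.42 ± 0.04 (SE, adjusted p = 0.000355). The groups did not overlap for either gene. HSPA5, the chaperone BiP of the endoplasmic reticulum, fell by 0.32 ± 0.04 (SE, adjusted p = 0.000736). The remaining measured genes listed under the integrated stress response did not pass the test. MTHFD2 changed by -0.09 (adjusted p = 0.263) and XBP1 by -0.10 (adjusted p = 0.356). PABPC1, which binds the poly(A) tail and eIF4G, had a change of 0.02 ± 0.03 (SE, adjusted p = 0.629), with the sign turned without scaling. DOHH, listed under factor modification, changed by -0.19 and did not pass the test (adjusted p = 0.0664), though its groups did not overlap. Its fall was called without scaling (adjusted p = 0.0372) and with both forms of normexp (adjusted p = 0.0252 and 0.0287). The other DOHH probe was not called (change -0.23, adjusted p = 0.179), and its groups overlapped.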

How the data were processed

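Each of the 6 samples was read on 1 single-colour array. The deposited scanner values are linear intensities. The submitters' processing notes name Agilent Feature Extraction 10.7, and background subtraction of the signal used is recorded per the file headers. A second deposited file holds log2 values from the authors, whose making the sources used here do not give; it served as an alternative. Control spots and outlier spots were left out, log2 of the processed signal minus the 75th percentile of its array was averaged over a probe's spots, and probes well above background on at least 3 of 6 arrays were kept. Groups came from the labels. The test was limma's moderated fit (limma 3.58.1, R 4.3.3; lmFit and eBayes on all 6 arrays, no block, Benjamini-Hochberg). Folds are 2 to the power of the log2 change. The number of arrays limits the precision. Members and lists were chosen with earlier results of these data known. Probes were named as follows: up to 6 called rises and 6 called falls of each role, genes with several probes, and a fixed list of factors; the remaining members were described too, after their values were seen. Names came from the array's descriptions for 22 members and from RefSeq symbols (ARS-UI_Ramb_v3.0, names only) for 12. Factors without a member probe were not analysed here. Of the proliferation and other cell markers, only those with a named probe were used. The 17 alternatives changed scaling, background, filters, probes per gene, the block or the arrays used.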

Additional observations from a re-analysis of the deposited data

How the results depend on the processing

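Of 23 called member probes, 14 kept their direction and call in all alternatives run for them, and no called probe changed sign. Higher initiation factor probes, 1 in the report, were 2 with median centring, 2 with normexp, 2 with normexp without spots of extreme background, 0 without scaling and 1 to 2 when 1 array was left out (2 without epidermal replicate 1). Lower initiation factor probes, 9 in the report, were 14 without scaling and 8 to 9 when 1 array was left out. With 1 probe per gene name, elongation factors had 2 higher and 1 lower. Higher synthetase probes, 5 in the report, were 0 without scaling and 4 to 5 when 1 array was left out. The 1 lower synthetase probe became 2 without scaling and 0 with median centring, quantile normalization, the authors' deposited table, both forms of normexp, outlier spots kept, no filter on dim probes, the replicate block and any array left out. Of the other translation genes, 1 was higher and 3 were lower without scaling, and 2 were lower with either form of normexp. Signs turned only in changes that were not called. EIF1AX was 0.0099 with median centring, 0.0032 with quantile normalization and 0.01 in the authors' deposited table. Without scaling EIF2S3 was -0.05, EIF4G1 (A_70_P031206) -0.10, EIF5B -0.07, asparaginyl-tRNA synthetase (A_70_P068016) -0.10 and PABPC1 -0.15. EIF5A was 0.0014 with median centring. With 1 array left out, EIF3C ran from -0.10 to 0.0073, EIF5A from -0.10 to 0.01 and EIF5B from -0.0097 to 0.24. Where a cause is not in the setting itself, the cause was not tested. Same-numbered arrays of the 2 groups correlated at 0.017, -0.029 and 0.038 in their deviations from the group means. These values gave no sign that the numbers pair the samples, but they cannot exclude it. With the replicate block, initiation factors had 1 higher and 8 lower, elongation factors 4 and 3, and synthetases 5 and 0. Dim signal is 1 limit on the eIF4G1 pair, whose size moved with the background correction.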

Other observations

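Some probes with related descriptions lay outside the rule because of how their names are written. A_70_P024176, whose gene number matches EEF1A1, was at 5.43, 5.30 and 5.24 on the epidermal arrays and at 5.25, 5.19 and 5.20 on the corneal arrays, a change of -0.11 ± 0.06 (SE) that did not pass the test (adjusted p = 0.145). The probes of LOC100125610, described as an elongation factor-1 alpha, fell by 0.25 ± 0.03 (A_70_P024461, adjusted p = 0.000783) and by 0.28 ± 0.04 (A_70_P024462, adjusted p = 0.00248). A_70_P002171, described as a GDP-GTP exchange factor of the eIF2B kind, which recharges eIF2, was at -0.82, -0.77 and -0.81 against -0.96, -1.03 and -0.97 and fell by 0.19 ± 0.03 (SE, adjusted p = 0.00463). These probes were looked up after the values of the members had been seen. Member probes had a median GC content of 45.0%, beside 43.3% for all gene probes.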
